A study of Mus musculus with 18 samples.

Results

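The SOX family of transcription factors was followed across 3 genotypes of mouse small cell lung cancer (SCLC), in RNA and in open chromatin. The 9 genes Sox1, Sox2, Sox3, Sox4, Sox5, Sox6, Sox9, Sox11 and Sox21 were taken by symbol from a table of 46078 genes. The 122 regions of open chromatin (ATAC peaks) within 50000 bp of the 9 genes were taken from a table of 111664 peaks. All tumors carried the floxed alleles Rb1L/L, Rbl1L/L and p53L/L (TKO), which adenoviral Cre given into the trachea at 8 weeks of age deletes in the cells it reaches, and cancer cells were isolated 28 weeks later. The TKO group had no other change. TKO;Carm1 tumors also carried the conditional allele Carm1L/L and so lost the arginine methyltransferase CARM1 in the same cells (CARM1 knockout below). TKO;NfibR388K tumors carried a knock-in, present in the whole animal, that replaces the arginine of nuclear factor I B (NFIB) methylated by CARM1 with lysine (NFIB mutant below). The labels give 3 independent animals per genotype for RNA-seq and for ATAC-seq, so there were 9 libraries of each kind, and the study's text says that both assays were made on the same tumors, with cells sorted by a tdTomato reporter. Its text also names Rbl2 in place of Rbl1, and cancer cell lines for ATAC-seq, and neither point could be settled from the tables. The tables name their columns with the letters C, KO and N, which were read as TKO, CARM1 knockout and NFIB mutant as in the study's legends. The Carm1 gene itself did not settle the reading, because its level was 44.5 to 103 CPM (counts scaled to a common library size) in TKO, 50.7 to 79.0 in CARM1 knockout and 100 to 104 in NFIB mutant libraries and it was not called in either mutant.

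SOX proteins bind the minor groove of DNA through a high mobility group box and bend it, mostly together with a partner factor. SOX2 and its SOXB1 relatives keep neural and endodermal progenitors in an immature state, SOXC proteins act in early neurons, and SOXD and SOXE proteins act together in cartilage. SCLC is a neuroendocrine tumor, and SOX2 and SOX11 are known from neuroendocrine and neural tumors.

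The sequences of regions on which the results turn are shown first, as reference sequence of the mouse build GRCm38 in lower case. Capitals mark any match, on either strand, to the palindromic full site of nuclear factor I, to its single arm TTGGCA, or to the SOX cores ACAATG and ACAAAG. The single arm can overlap the full site. The promoters of Sox1 and Sox2 (250 bases before to 50 after the start of transcription in the RefSeq table, GRCm38.p6) are shown because both genes and the open chromatin at both starts are described below. The first peak is the one upstream of Sox11 with the largest drop near that gene, picked after its values were seen. The 2 others lie in Sox5 introns and are the strongest peaks of that gene lower and higher in both mutants. For peaks the central 300 bases on the plus strand are given.
Sox1 promoter, chr8:12395269-12395568, plus strand: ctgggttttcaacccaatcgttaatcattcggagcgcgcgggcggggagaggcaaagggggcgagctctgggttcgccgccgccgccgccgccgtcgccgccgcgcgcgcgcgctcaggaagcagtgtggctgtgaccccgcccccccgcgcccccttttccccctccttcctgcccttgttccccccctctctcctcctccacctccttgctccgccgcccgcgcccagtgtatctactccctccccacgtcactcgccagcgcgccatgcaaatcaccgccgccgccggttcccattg
Sox2 promoter, chr3:34649745-34650044, plus strand: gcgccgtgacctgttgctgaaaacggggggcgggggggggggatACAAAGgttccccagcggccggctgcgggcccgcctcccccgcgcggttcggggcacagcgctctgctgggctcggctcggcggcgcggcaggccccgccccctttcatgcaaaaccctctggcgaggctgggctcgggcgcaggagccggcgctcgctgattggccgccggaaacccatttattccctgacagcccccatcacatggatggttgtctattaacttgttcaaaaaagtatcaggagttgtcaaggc
Sox11 upstream peak, chr12:27357222-27357521, plus strand: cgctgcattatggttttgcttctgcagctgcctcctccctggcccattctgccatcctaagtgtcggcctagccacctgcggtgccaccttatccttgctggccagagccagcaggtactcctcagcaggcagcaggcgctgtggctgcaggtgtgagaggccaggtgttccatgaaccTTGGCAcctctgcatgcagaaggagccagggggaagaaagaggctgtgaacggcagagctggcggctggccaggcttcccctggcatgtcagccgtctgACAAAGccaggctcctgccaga
Sox5 peak lower in both mutants, chr6:144056461-144056760, plus strand: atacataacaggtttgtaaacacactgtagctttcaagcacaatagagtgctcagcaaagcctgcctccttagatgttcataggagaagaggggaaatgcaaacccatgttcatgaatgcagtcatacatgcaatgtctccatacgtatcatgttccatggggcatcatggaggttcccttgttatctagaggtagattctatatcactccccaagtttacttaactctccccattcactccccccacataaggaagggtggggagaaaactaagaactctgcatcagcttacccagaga
Sox5 peak higher in both mutants, chr6:143916231-143916530, plus strand: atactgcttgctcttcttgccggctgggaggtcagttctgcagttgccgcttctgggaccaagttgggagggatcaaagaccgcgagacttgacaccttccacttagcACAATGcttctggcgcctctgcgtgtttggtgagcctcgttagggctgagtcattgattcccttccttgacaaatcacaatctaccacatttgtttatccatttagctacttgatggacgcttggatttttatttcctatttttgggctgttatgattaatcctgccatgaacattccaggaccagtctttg

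No match to the 4 motifs was found in the Sox1 promoter, and the Sox2 promoter held 1 ACAAAG. The Sox11 upstream peak held 1 single arm and 1 ACAAAG, the Sox5 peak higher in both mutants 1 ACAATG and the Sox5 peak lower in both mutants none. The single arm was present in 23.0% of the central 300 bases of the 122 peaks near SOX genes, against 21.3% of all peaks and 14.1% of 32851 promoters. ACAATG was present in 18.0%, 15.8% and 12.6%, and ACAAAG in 28.7%, 24.1% and 18.7%, respectively. The full site was in 0 of the 122 peaks, in 0.1% of all peaks and in 12 promoters. Among the 66 peaks that were lower in both mutants, 14 held the single arm, 15 held ACAATG and 25 held ACAAAG, and among the 32 that were higher in both the counts were 5, 4 and 6. These matches describe letters in a window, and no binding was measured here.

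RNA libraries held 15848866 to 20915057 counts in genes and ATAC libraries 26917178 to 47653979 counts in peaks. A count of 0 allowed a level of up to 0.131 to 0.203 CPM in RNA (3 counts, counting error only). Genes were called with an adjusted p under 0.1 and a log2 fold change of at least 0.8, and peaks with the same p and at least 0.5. Adjusted p-values are those of the quasi-likelihood test of edgeR, corrected by the Benjamini-Hochberg method over the 15514 genes or 111116 peaks tested, and fold changes are log2 with an approximate standard error (SE). CPM values use library sizes scaled by TMM. Both mutants were compared with the same 3 TKO libraries, so their comparisons are not independent of each other. In these bulk libraries fewer cells of a type and less RNA per cell cannot be told apart.

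Marker RNA of other cell types differed between the genotypes. The summed level of 6 fibroblast markers was 11.1 to 63.3 CPM in TKO, 14433 to 25754 in CARM1 knockout and 9464 to 15887 in NFIB mutant libraries, and 6 of 6 and 5 of 6 of these genes rose. The sum of 12 neuroendocrine markers was 1819.7 to 4408 CPM in TKO and 34.0 to 51.4 in NFIB mutant libraries, and 11 of 12 fell. In CARM1 knockout libraries 1, 2 and 3 that sum was 59.3, 188 and 1842 CPM, and 2 of 12 fell. The summed neuroendocrine level was thus below every TKO library in 5 of the 6 mutant libraries labelled as SCLC cells, and within the TKO range in CARM1 knockout library 3. Calca, 1 of the 12 markers, gave 832 CPM of the sum of CARM1 knockout library 3. It was at 21.9, 11.35 and 5.13 CPM in TKO libraries 1 to 3. Without Calca the sum of CARM1 knockout library 3 lay below that of every TKO library. Of 6 smooth muscle markers 4 rose in CARM1 knockout and 3 in NFIB mutant, and of 7 tested leukocyte markers 6 and 2 rose. Of 5 endothelial markers 1 rose in each mutant and 1 fell in NFIB mutant. Of 8 lung epithelial markers 1 fell in each and 2 rose in NFIB mutant, and of 3 glial markers 2 and 1 fell. Of all genes tested 20.5% rose and 18.3% fell in CARM1 knockout, and 22.3% rose and 23.5% fell in NFIB mutant. The endothelial and lung epithelial counts, the leukocyte count in NFIB mutant and the neuroendocrine count in CARM1 knockout were near these shares. The part of these marker levels in the SOX results below was not tested.

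Of the 9 SOX genes 8 passed the filter on low counts and could be tested. In CARM1 knockout tumors 2 of the 8 fell (Sox5 and Sox11), against 18.3% of all genes tested. In NFIB mutant tumors 6 of the 8 fell (Sox1, Sox2, Sox4, Sox5, Sox6 and Sox11), against 23.5%, and with both mutants joined as a single group the same 6 fell, against 24.7%. None rose in any comparison. The median log2 fold change of the 8 was -2.25 in CARM1 knockout and -4.33 in NFIB mutant, beside -0.03 and -0.05 over all genes. All 6 mutant libraries lay below all 3 TKO libraries for 5 of the 8 genes (Sox1, Sox2, Sox5, Sox6 and Sox11), which was the case for 23.3% of all genes. In the plot of RNA levels by library Sox4 and Sox21 have NFIB mutant libraries below TKO and CARM1 knockout libraries that overlap it, and Sox9 overlaps TKO in both mutants.

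**Figure D1:**
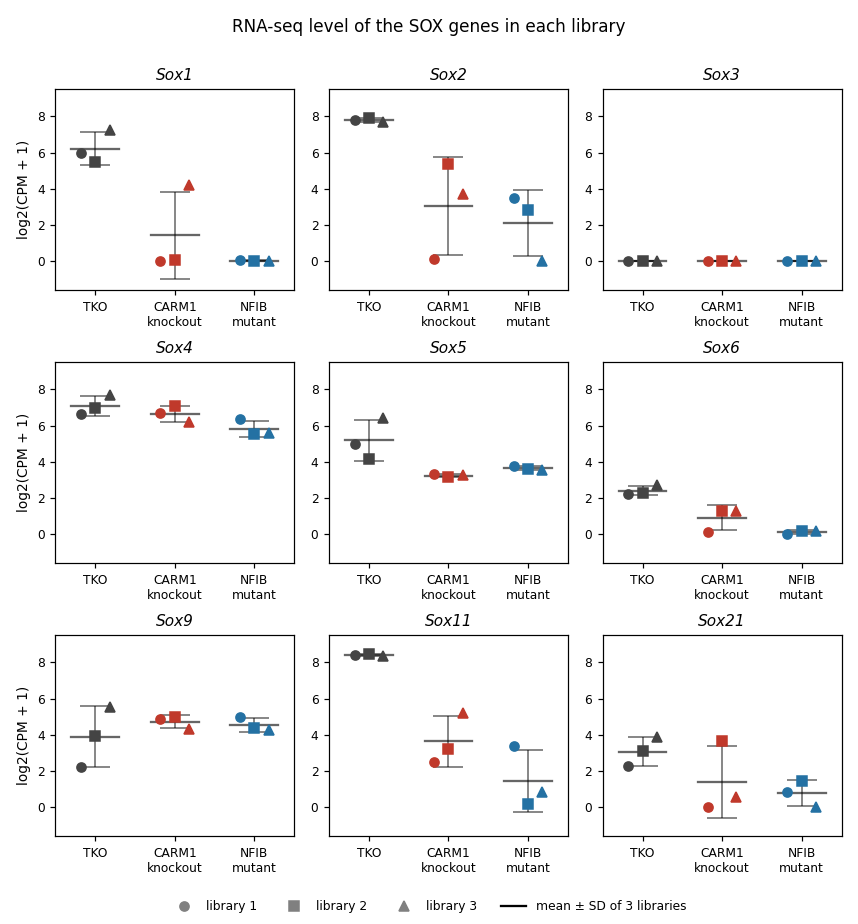
RNA level of the 9 SOX genes in each library, as log2(CPM + 1) on 1 shared axis, with 3 libraries per genotype as points and bars for the mean and SD. Sox1, Sox2, Sox5, Sox6 and Sox11 have every mutant library below every TKO library, and Sox3 is at 0 counts in all 9 libraries.

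Per kilobase of exon, which allows genes to be compared, Sox2 had the highest RNA level in TKO tumors with 108 ± 7.19 CPM per kb (SD, n = 3). Sox11 followed with 41.0 ± 1.78, Sox4 with 29.9 ± 11.9 and Sox1 with 17.5 ± 11.7. These 3 overlapped their neighbours in the order, and Sox2 stood above all of them in every library. Sox9 (5.14 ± 5.31), Sox5 (3.05 ± 2.48) and Sox21 (2.18 ± 1.28) came next and overlapped one another, and Sox6 was lower with 0.295 ± 0.0709. In CARM1 knockout tumors Sox4 came first with 21.5 ± 6.66 CPM per kb and Sox2 second with 8.55 ± 10.2. Sox2 ranged there from 0.0329 to 19.8 CPM per kb and overlapped both Sox4 (14.9 to 28.3) and Sox9 (4.52 to 7.34). In NFIB mutant tumors Sox4 again came first with 11.96 ± 4.08, Sox9 second with 5.49 ± 1.58, and Sox2, which overlapped Sox9, had 2.62 ± 2.46.

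Among the SOXB1 genes, Sox2 (ENSMUSG00000074637, chr3:34650405-34652461, plus strand), which maintains progenitors and marks the embryonic foregut and airway, was high in TKO and low in both mutants. Its RNA level was 225, 237 and 207 CPM in TKO libraries 1 to 3, 0.0677, 40.8 and 11.9 in CARM1 knockout and 10.01, 6.16 and 0 in NFIB mutant libraries. All TKO libraries agreed closely and lay above every mutant library, while the mutant libraries spread widely. The mean was 12.7 times lower in CARM1 knockout (log2 fold change -3.66, SE 1.71, edgeR adjusted p = 0.127), which was not called, and 41.4 times lower in NFIB mutant (-5.37, SE 1.86, adjusted p = 0.0485), which was. Without NFIB mutant library 1 the NFIB value was -6.17 and without library 3 it was -4.78. Without NFIB mutant library 2 the NFIB call was lost (adjusted p = 0.121), and without NFIB mutant library 3 the CARM1 knockout change was called (adjusted p = 0.0829).

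Sox1 (ENSMUSG00000096014, chr8:12395295-12400126, plus strand), which acts in neural progenitors beside Sox2, had a steeper pattern. It was at 62.1, 43.1 and 149 CPM in TKO, 0, 0.0582 and 17.5 in CARM1 knockout and 0.0607, 0 and 0 in NFIB mutant libraries. CARM1 knockout library 3 stood apart from the other 5 mutant libraries, which were under the level that 3 counts give. Sox1 fell in NFIB mutant (log2 fold change -11.59, SE 2.85, edgeR adjusted p = 0.0147). The 3 NFIB mutant libraries together held 1 count against 5647 in TKO, a level 4127 times lower after scaling (95% Poisson interval 740.7 to 163000, counting error only). In CARM1 knockout the difference was not called (-3.85, SE 1.83, adjusted p = 0.133), but it was by DESeq2 (-3.88, adjusted p = 0.0955) and, with edgeR, without CARM1 knockout library 3 (-11.09, adjusted p = 0.00179). In NFIB mutant the value was -10.87 without TKO library 3 and -13.61 without NFIB mutant library 1. CARM1 knockout library 3 also had the highest sum of neuroendocrine markers of all mutant libraries.

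Sox3 (ENSMUSG00000045179, chrX:60891366-60893430, minus strand), the third SOXB1 gene, had 0 counts in all 9 libraries and no peak within 50000 bp. Sox21 (ENSMUSG00000061517, chr14:118233232-118237030, minus strand), a SOXB2 gene that counters SOXB1 factors on shared targets, was at 3.89, 7.47 and 13.5 CPM in TKO, 0, 11.6 and 0.449 in CARM1 knockout and 0.789, 1.72 and 0 in NFIB mutant libraries. CARM1 knockout library 2 reached into the TKO range and the NFIB mutant libraries lay below it. No change of Sox21 was called (-1.04, SE 1.83, edgeR adjusted p = 0.677 in CARM1 knockout and -3.29, SE 1.99, adjusted p = 0.209 in NFIB mutant). With both mutants joined against TKO, leaving out CARM1 knockout library 2 gave -4.21 (adjusted p = 0.0461).

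Of the SOXC genes, Sox11 (ENSMUSG00000063632, chr12:27334264-27342574, minus strand), which acts in immature neurons, fell in both mutants. Its level was 341, 356 and 326 CPM in TKO, 4.54, 8.39 and 35.7 in CARM1 knockout and 9.41, 0.123 and 0.761 in NFIB mutant libraries. TKO libraries were close together and far above the others, and CARM1 knockout library 3 was the highest mutant library. The mean was 21.0 times lower in CARM1 knockout (log2 fold change -4.39, SE 1.35, edgeR adjusted p = 0.0383) and 99.4 times lower in NFIB mutant (-6.63, SE 1.51, adjusted p = 0.0112). The CARM1 knockout call was lost without CARM1 knockout library 1 (adjusted p = 0.109) or 2 (adjusted p = 0.113), and without library 3 the value was -5.67. Without NFIB mutant library 1, the highest of its group, the NFIB mutant value was -9.57 (adjusted p = 0.00437).

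Sox4 (ENSMUSG00000076431, chr13:28948919-28953713, minus strand), the other SOXC gene and one expressed in many tissues, kept a substantial level in every library. It was at 98.6, 124 and 208 CPM in TKO, 102, 136 and 71.7 in CARM1 knockout and 79.9, 44.9 and 47.3 in NFIB mutant libraries. CARM1 knockout overlapped TKO, whereas the NFIB mutant libraries lay below TKO. Sox4 was not called in CARM1 knockout (-0.48, SE 0.37, edgeR adjusted p = 0.333) and fell in NFIB mutant (-1.32, SE 0.38, adjusted p = 0.0246). The call with both mutants joined (-0.90, adjusted p = 0.0432) was lost without TKO library 3 (-0.50, adjusted p = 0.214) or without CARM1 knockout library 3 (-0.77, short of the fold threshold).

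Of the SOXD genes, which lack an activation domain of their own, Sox5 (ENSMUSG00000041540, chr6:143828425-144781977, minus strand) fell in both mutants. It was at 30.9, 16.5 and 84.3 CPM in TKO, 9.002, 7.80 and 8.53 in CARM1 knockout and 12.8, 11.3 and 10.8 in NFIB mutant libraries. TKO spread over a wide range and each mutant was tight, with no overlap. The log2 fold change was -2.38 (SE 0.54, edgeR adjusted p = 0.0137) in CARM1 knockout and -1.92 (SE 0.53, adjusted p = 0.0229) in NFIB mutant. Without TKO library 3, the highest, Sox5 was still called at -1.45 (adjusted p = 0.0146) and -1.0 (adjusted p = 0.0412).

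Sox6 (ENSMUSG00000051910, chr7:115470872-116038796, minus strand), the partner of Sox5 in cartilage and in neurons, was low throughout. It was at 3.65, 3.89 and 5.57 CPM in TKO, 0.0677, 1.46 and 1.46 in CARM1 knockout and 0, 0.123 and 0.127 in NFIB mutant libraries. Both mutants lay below TKO and overlapped each other. The difference was not called in CARM1 knockout by edgeR (-2.12, SE 1.03, adjusted p = 0.139) but was by DESeq2 (-2.16, adjusted p = 0.0535). Sox6 fell in NFIB mutant (-5.61, SE 1.26, adjusted p = 0.0104), where 4 counts stood against 291 in TKO.

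Sox9 (ENSMUSG00000000567, chr11:112782224-112787760, plus strand), the SOXE gene that directs cartilage formation and acts in distal lung progenitors, differed from the others. It was at 3.65, 14.3 and 45.8 CPM in TKO, 28.6, 30.3 and 18.7 in CARM1 knockout and 30.2, 20.1 and 17.9 in NFIB mutant libraries. TKO library 3 was the highest of all 9 and TKO library 1 the lowest, so the groups overlapped. No change was called (0.28, SE 0.75, edgeR adjusted p = 0.786 and 0.10, SE 0.75, adjusted p = 0.926). Without TKO library 3 Sox9 was called higher in CARM1 knockout (1.56, adjusted p = 0.0833).

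Between the mutants themselves none of the 8 genes was called by edgeR, as was the case for all genes (0% of 15514, with 1415 at an unadjusted p under 0.05). Sox1 and Sox6 had an unadjusted p under 0.05 and were called by DESeq2. The log2 fold change of CARM1 knockout over NFIB mutant was 7.74 for Sox1 (edgeR adjusted p = 0.525), so the wider fall in NFIB mutant is not established as a difference between the mutants.

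Noncoding genes lie across or against several SOX genes, and whether counting used strand is not stated. Gm26735, Sox5os1 and Gm4675 share 2616, 1330 and 713 bp of exon with Sox4, Sox5 and Sox21 on the opposite strand. Gm25239 shares 86 bp of exon with Sox1 on the same strand. The counts of these SOX genes are uncertain to that extent, for Sox1 whether or not counting used strand. Sox2ot, the noncoding gene that spans Sox2 on the same strand without sharing exon sequence, was at 23.8, 11.2 and 58.0 CPM in TKO, 0, 0.641 and 0.0561 in CARM1 knockout and 0.182, 0 and 0 in NFIB mutant libraries. It fell in both mutants (log2 fold change -7.00, edgeR adjusted p = 0.0136 and -8.83, adjusted p = 0.00696), and TKO library 3 was the highest of Sox2ot but the lowest TKO library of Sox2. Sox1ot, which spans Sox1, was at 11.99, 4.498 and 21.7 CPM in TKO, 0, 0 and 1.07 in CARM1 knockout and 0.182, 0 and 0 in NFIB mutant libraries, and it fell in both (-5.12, adjusted p = 0.0621 and -7.55, adjusted p = 0.0238).

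Of 10 other SOX genes 4 could be tested, and in each mutant 1 rose, against 20.5% of all genes in CARM1 knockout and 22.3% in NFIB mutant, and 1 fell, against 18.3% and 23.5%. Sox7, known from endothelium, was at 0, 0.0437 and 0 CPM in TKO, 1.69, 0.873 and 2.64 in CARM1 knockout and 2.43, 1.42 and 2.47 in NFIB mutant libraries and rose in both (edgeR adjusted p = 0.00322 and 0.00213). Sox8, a SOXE gene, was at 4.61, 2.10 and 0.841, at 0.541, 0.117 and 1.01 and at 0.182, 0.123 and 0.190 CPM and fell in both (log2 fold change -2.16, edgeR adjusted p = 0.0827 and -3.87, adjusted p = 0.0142). Sox7 is thus near the detection limit in TKO, whereas Sox8 overlapped between TKO and CARM1 knockout.

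Genes tied to the SOX factors were counted from 3 lists, to be read against the same shares of all genes. Of 12 partners of SOXB1 factors and neural progenitor genes 4 were tested, of which 3 fell in CARM1 knockout, and 2 fell and 1 rose in NFIB mutant. Sox2ot belongs to that list, as does Pou2f1, a POU factor that can pair with SOX2, at 61.3, 62.1 and 35.6 CPM in TKO, 19.9, 28.5 and 25.1 in CARM1 knockout and 26.8, 23.0 and 19.98 in NFIB mutant libraries (log2 fold change -1.11, edgeR adjusted p = 0.0161 and -1.19, adjusted p = 0.0104). Of 6 genes known as targets of SOX4 and SOX11, 5 were tested, and 3 fell in CARM1 knockout and 4 in NFIB mutant, against 18.3% and 23.5% of all genes. Their median log2 fold change was -4.36 and -6.93, beside -0.03 and -0.05 over all genes.

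Tubb3, a neuronal tubulin and a SOX4 and SOX11 target, was at 212, 113 and 298 CPM in TKO, 78.3, 68.1 and 110 in CARM1 knockout and 67.5, 49.55 and 54.7 in NFIB mutant libraries and fell in both (log2 fold change -1.28, edgeR adjusted p = 0.0263 and -1.86, adjusted p = 0.0059). Dcx, a microtubule protein of migrating neurons, was at 248, 97.5 and 655 CPM in TKO, 0, 0 and 23.3 in CARM1 knockout and 0.425, 0.123 and 0 in NFIB mutant libraries and fell in both (-5.42, adjusted p = 0.0724 and -10.77, adjusted p = 0.016). Map2, a dendritic microtubule protein, was at 246, 243 and 409, at 0.406, 0.582 and 31.8 and at 5.58, 1.17 and 0.571 CPM and also fell in both (-4.77, adjusted p = 0.0572 and -6.93, adjusted p = 0.02). In each of these 3 genes the highest CARM1 knockout library was library 3, as for Sox1 and Sox11. Tead2, which carries out Hippo signaling and is a target of SOX4 and SOX11, went the other way, at 7.20, 7.21 and 1.15 CPM in TKO, 76.8, 109 and 59.0 in CARM1 knockout and 73.8, 70.2 and 82.5 in NFIB mutant libraries. Its log2 fold change was 3.97 (edgeR adjusted p = 0.00398) and 3.86 (adjusted p = 0.00336). Of 11 cartilage genes under SOX9, SOX5 and SOX6, 5 were tested, with 2 higher and 2 lower in CARM1 knockout (20.5% and 18.3% of all genes) and 2 higher and 3 lower in NFIB mutant (22.3% and 23.5%). Col11a1, a fibrillar collagen, rose in both (log2 fold change 7.52 and 3.69), as did the matrix protein Matn3 (4.06 and 3.51). The collagens Col11a2 (-3.04 and -2.71) and Col9a3 (-4.51 and -5.56) fell in both.

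Nfib, the factor altered in the NFIB mutant, was at 420, 579 and 570 CPM in TKO, 74.4, 216 and 87.1 in CARM1 knockout and 105, 83.2 and 91.3 in NFIB mutant libraries and fell in both (log2 fold change -2.06, edgeR adjusted p = 0.008 and -2.49, adjusted p = 0.00325).

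For each SOX gene the genes with the most alike pattern over the 9 RNA libraries were listed by Pearson's r of log2 CPM with a prior count of 2, as a description over libraries that share genotype. They were Sh3gl2, Ric3 and Susd4 for Sox1 (r of 0.999, 0.997 and 0.996) and Gm42549, Fbxl18 and Ccdc88c for Sox2 (0.980, 0.979 and 0.974). They were Ppp1r9a, Msi1 and Rims2 for Sox11 (0.987, 0.984 and 0.983) and Clock, Cfap74 and 1810026B05Rik for Sox4 (0.960, 0.953 and 0.950). Sox5 was most like Asic2, Gm38279 and Gm36958 (0.979, 0.977 and 0.972), and Sox6 most like Acap3, Ermard and Ccdc92 (0.983, 0.973 and 0.966). Sox9 was most like Zhx2, Fendrr and Abcd3 (0.987, 0.946 and 0.918), and Sox21 most like Agbl3, Gm37850 and Gm37152 (0.961, 0.958 and 0.944). Among the SOX genes themselves the most alike pairs were Sox2 with Sox21 (0.922), Sox1 with Sox11 (0.905) and Sox1 with Sox6 (0.887).

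Open chromatin was lower in the mutants around Sox1, Sox2, Sox6 and Sox11, while Sox5 had peaks that moved in both directions. Of the 122 peaks 121 were tested. In CARM1 knockout 67 were lower and 35 higher, against 32.4% and 38.7% of all peaks tested. In NFIB mutant 71 were lower and 35 higher, against 34.0% and 39.3%. The median log2 fold change of the 121 was -1.84 and -2.42, beside 0.22 over all peaks in each mutant. In both mutants 66 of these peaks were lower and 32 higher, against 30.8% and 35.0% of all peaks, with the TKO libraries shared by both comparisons. All 6 mutant libraries lay below all 3 TKO libraries at 59 of the peaks, which was the case at 28.6% of all peaks. None differed between the mutants by edgeR (0% of all peaks, with 6814 at an unadjusted p under 0.05), and 11 of the 121 had an unadjusted p under 0.05. Scaling by total counts raised the median of all peaks to 0.79 and turned the numbers higher and lower over all peaks from 42965 and 36019 to 52589 and 27241 in CARM1 knockout, and from 43652 and 37781 to 52694 and 29255 in NFIB mutant. With that scaling 38 SOX peaks were higher and 60 lower in CARM1 knockout, and 38 higher and 67 lower in NFIB mutant.

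The peaks fell out by gene. All 9 Sox1 peaks and all 4 Sox11 peaks were lower in both mutants. Of 12 Sox2 peaks 10 were lower in CARM1 knockout and 12 in NFIB mutant. Of 16 Sox6 peaks 12 and 14 were lower and none was higher. Of 65 Sox5 peaks 27 were lower and 32 higher in each mutant. Sox4, Sox9 and Sox21 had 6, 6 and 4 peaks, of which 2, 2 and 1 were lower in CARM1 knockout and 2, 1 and 2 in NFIB mutant. In the same order 2, 1 and 0 were higher in CARM1 knockout and 1, 1 and 1 in NFIB mutant.

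**Figure D2:**
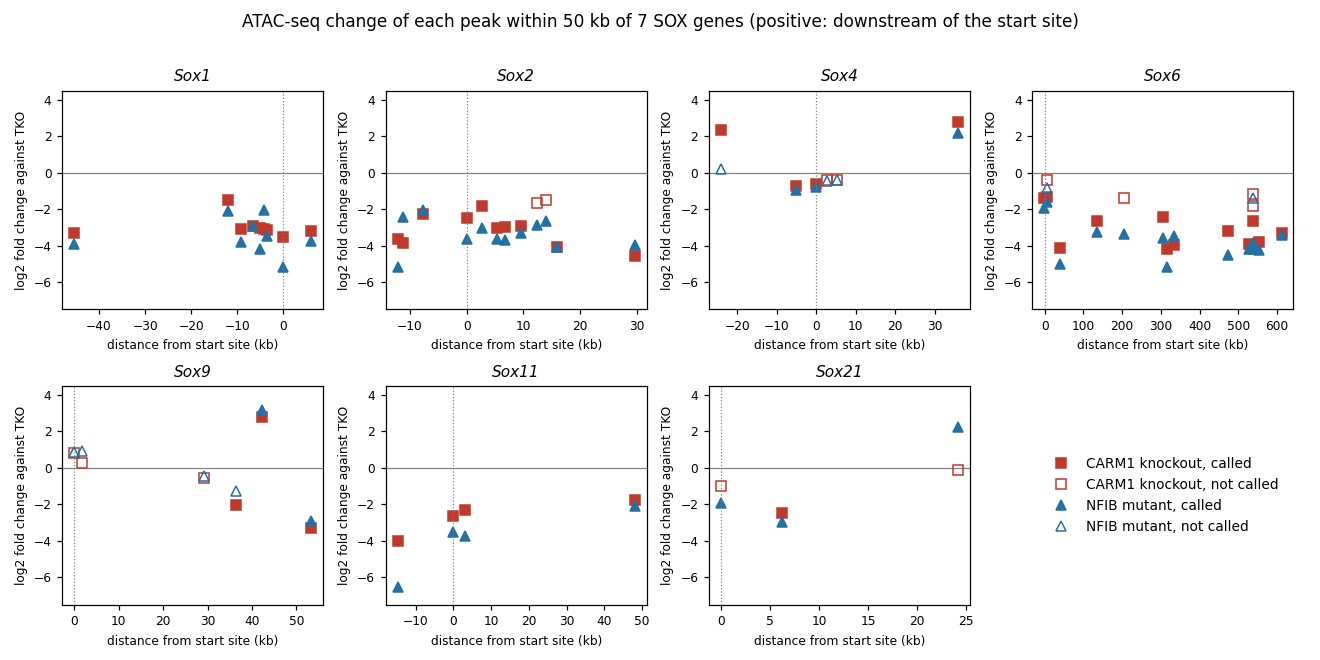
Log2 fold change against TKO of each tested ATAC peak near the SOX genes other than Sox5, by distance from the start site in kilobases. Values are given for CARM1 knockout and NFIB mutant. Peaks near Sox1, Sox2 and Sox11 lie below 0 in both mutants. The Sox5 peaks are drawn in a separate figure.

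At the start site of Sox2 the peak (chr3:34647812-34651482) was at 78.9, 88.3 and 71.9 CPM in TKO, 1.89, 27.3 and 13.2 in CARM1 knockout and 10.1, 5.60 and 3.79 in NFIB mutant libraries. It lay lower in every mutant library and was called in both (log2 fold change -2.49, edgeR adjusted p = 0.00876 and -3.62, adjusted p = 0.00153). CARM1 knockout library 2, the highest mutant library of Sox2 RNA, was also the highest here, and it was the highest mutant library at 8 of the 12 Sox2 peaks. Without it the CARM1 knockout value was -3.39.

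The peak over the Sox1 start (chr8:12394559-12397980) was at 69.6, 59.5 and 83.8 CPM in TKO, 2.14, 2.42 and 13.97 in CARM1 knockout and 2.15, 2.24 and 1.41 in NFIB mutant libraries. CARM1 knockout library 3 again exceeded the other mutant libraries, yet stayed far below TKO. The log2 fold change was -3.52 (SE 0.63, edgeR adjusted p = 0.00095) and -5.20 (SE 0.69, adjusted p = 0.000163), and without CARM1 knockout library 3 the first was -4.95. A second peak 9.2 kb upstream of Sox1 (chr8:12383971-12388132) was at 47.7, 41.2 and 50.3 CPM in TKO, 2.48, 3.97 and 9.67 in CARM1 knockout and 4.69, 2.74 and 2.57 in NFIB mutant libraries.

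The peak over the Sox11 start (chr12:27341113-27344100) was at 106, 85.1 and 87.8 CPM in TKO, 10.2, 13.6 and 21.5 in CARM1 knockout and 11.95, 2.09 and 10.2 in NFIB mutant libraries. It was lower in both (log2 fold change -2.62, edgeR adjusted p = 0.00142 and -3.52, adjusted p = 0.000321). The upstream peak whose sequence is printed above (chr12:27356574-27358168, 14.8 kb from the start) was at 46.1, 32.7 and 10.8 CPM in TKO, 0.439, 0.48 and 4.76 in CARM1 knockout and 0.448, 0.24 and 0.294 in NFIB mutant libraries. It nearly disappeared in 5 of the 6 mutant libraries, and its log2 fold change was -3.98 (edgeR adjusted p = 0.0032) and -6.51 (adjusted p = 0.00044).

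**Figure D3:**
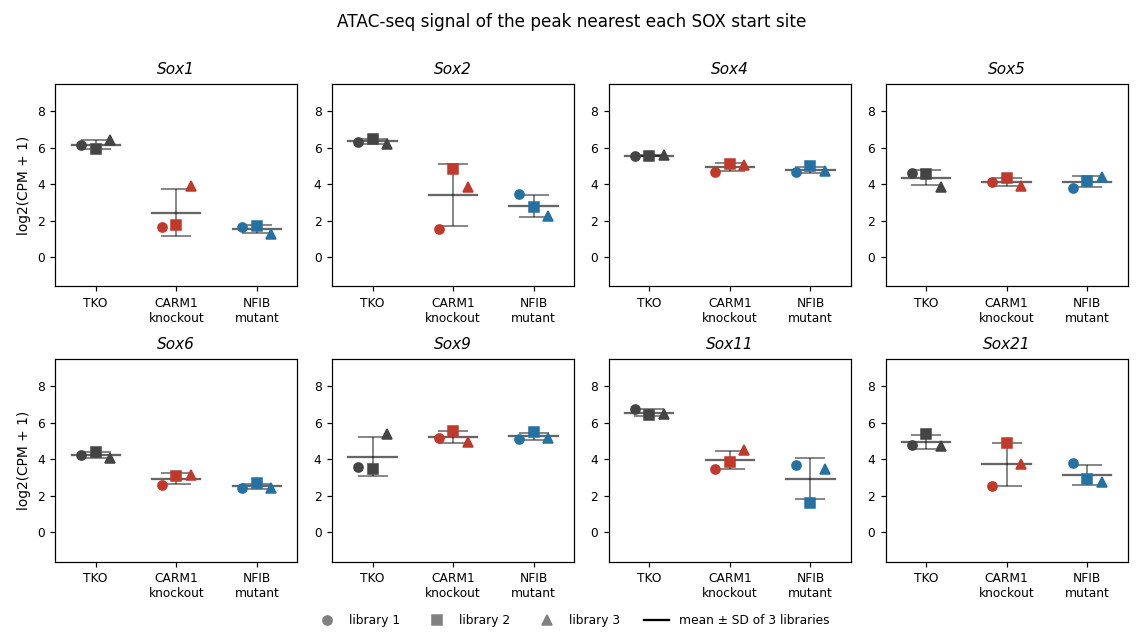
ATAC level of the peak at or nearest to the start site of each SOX gene in each library, as log2(CPM + 1) on 1 shared axis, with points for 3 libraries per genotype and bars for the mean and SD. The Sox1, Sox2, Sox6 and Sox11 peaks are lower in all mutant libraries, as is the Sox4 peak by a smaller amount. The Sox5 groups overlap.

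The Sox4 start site (chr13:28951649-28954257) was open in every library, at 45.8, 44.8 and 46.9 CPM in TKO, 24.6, 33.1 and 31.5 in CARM1 knockout and 23.9, 30.2 and 25.6 in NFIB mutant libraries. It was called lower in both (log2 fold change -0.62, edgeR adjusted p = 0.00632 and -0.79, adjusted p = 0.00176), but with scaling by totals the values were -0.04 and -0.22 and neither was called. The study's methods describe a scaling by start-site peaks of uniformly expressed genes. With a scaling of that kind the values were -0.28 and -0.38, short of the fold threshold, and neither was called. The CARM1 knockout call was also lost without CARM1 knockout library 1, where the value fell just under the threshold. A peak 36.0 kb past the Sox4 start (chr13:28916883-28918484) rose, from 0.669, 1.02 and 2.49 CPM in TKO to 10.4, 11.96 and 6.53 in CARM1 knockout and 6.54, 5.39 and 6.59 in NFIB mutant libraries.

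The peak nearest to the Sox6 start (chr7:116039263-116040862) was at 17.9, 20.2 and 16.01 CPM in TKO, 5.01, 7.50 and 7.76 in CARM1 knockout and 4.42, 5.36 and 4.45 in NFIB mutant libraries. The mutants did not overlap TKO (log2 fold change -1.41, edgeR adjusted p = 0.0018 and -1.92, adjusted p = 0.000339). The Sox21 start site (chr14:118234772-118237674) was at 26.0, 41.1 and 25.3 CPM in TKO, 4.73, 28.8 and 12.4 in CARM1 knockout and 12.6, 6.61 and 5.63 in NFIB mutant libraries. It was lower in NFIB mutant (-1.90, adjusted p = 0.0108) and not called in CARM1 knockout (-1.01, adjusted p = 0.119), where library 2 overlapped TKO as it did for Sox21 RNA. It was called without that library (-1.84, adjusted p = 0.0112) and by DESeq2 (-1.20, adjusted p = 0.0565).

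The Sox9 start site (chr11:112780998-112783774) was at 10.7, 10.2 and 40.5 CPM in TKO, 34.9, 45.3 and 29.4 in CARM1 knockout and 33.8, 43.2 and 34.8 in NFIB mutant libraries. TKO library 3 lay among the mutant libraries, and the other TKO libraries lay below them. In Sox9 RNA TKO library 3 lay above every mutant library. No change was called in either mutant alone (log2 fold change 0.84, edgeR adjusted p = 0.12 and 0.87, adjusted p = 0.106). With both mutants joined against TKO the peak was called higher (0.85, edgeR adjusted p = 0.0755). That call was lost without TKO library 1 (adjusted p = 0.259) or 2 (adjusted p = 0.259). Without TKO library 3 the values of the separate mutants were 1.82 and 1.85 and both were called higher. Scaling by totals also gave the call in both mutants, as did scaling by start-site peaks (1.17, edgeR adjusted p = 0.0416 and 1.26, adjusted p = 0.0299). Farther out, a peak 42.2 kb past the Sox9 start was higher (2.82 and 3.17) and a peak 53.4 kb past it was lower (-3.28 and -2.90) in the mutants.

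Sox5 RNA fell in both mutants, but its start site was not called in either. That peak (chr6:144780157-144782895) was at 23.6, 22.8 and 13.5 CPM in TKO, 16.1, 18.8 and 13.9 in CARM1 knockout and 12.8, 17.3 and 20.1 in NFIB mutant libraries, so the groups overlapped. Without TKO library 3, the lowest of TKO, it was called lower in CARM1 knockout (log2 fold change -0.51, edgeR adjusted p = 0.0778). A start site of other Sox5 transcripts 571.9 kb downstream (chr6:144208757-144211330) was at 21.4, 21.4 and 22.9 CPM in TKO, 6.22, 5.70 and 4.08 in CARM1 knockout and 4.84, 4.04 and 2.47 in NFIB mutant libraries. It was lower in both (log2 fold change -2.04, edgeR adjusted p = 0.00048 and -2.53, adjusted p = 0.00014).

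Along Sox5, which is 953.6 kb long, lower and higher peaks were found in every stretch, in differing proportions. In the 317.9 kb that begin at the start site, 20 of 31 peaks were higher and 7 lower in CARM1 knockout. In NFIB mutant 22 of those 31 were higher and 7 lower. In the middle stretch of the same length 3 of 12 were higher and 9 lower in each mutant. In the last stretch 8 of 20 were higher and 11 lower in CARM1 knockout, and 6 and 11 in NFIB mutant. Of all peaks tested 38.7% were higher and 32.4% lower in CARM1 knockout, and 39.3% and 34.0% in NFIB mutant. A run of 16 peaks from 65.4 to 141.3 kb past the start, chosen after the values were seen, had 14 peaks higher in both mutants and none lower. Its summed level was 10.9, 9.86 and 16.9 CPM in TKO, 73.9, 74.8 and 73.1 in CARM1 knockout and 76.5, 78.7 and 99.9 in NFIB mutant libraries.

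**Figure D4:**
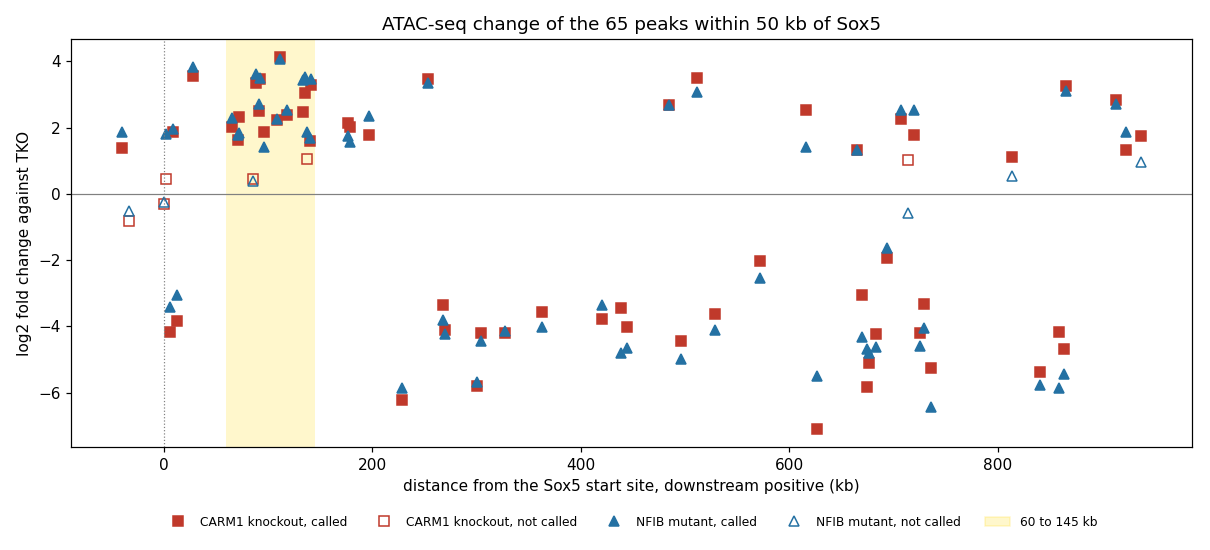
Log2 fold change against TKO of the Sox5 peaks by distance from the start site in kilobases, for CARM1 knockout and NFIB mutant. In CARM1 knockout higher peaks are frequent in the first stretch (20 of 31, against 38.7% of all peaks). Lower peaks are frequent in the middle stretch (9 of 12, against 32.4%).

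The strongest Sox5 peak lower in both mutants (chr6:144055524-144057697, 725 kb past the start, sequence above) was at 27.1, 40.8 and 27.2 CPM in TKO, 1.16, 1.80 and 2.20 in CARM1 knockout and 2.48, 0.914 and 0.549 in NFIB mutant libraries (log2 fold change -4.20 and -4.61). The strongest peak higher in both (chr6:143915735-143917026, 866 kb past the start) was at 2.39, 1.51 and 2.03 CPM in TKO, 18.4, 18.7 and 19.8 in CARM1 knockout and 14.3, 16.3 and 20.4 in NFIB mutant libraries (3.26 and 3.10). No mutant library overlapped TKO at either peak. Over the 27 Sox5 peaks lower in both mutants the summed level was 275, 343 and 129 CPM in TKO libraries 1 to 3, and TKO library 3 was the lowest TKO library at 21 of the 27, although its Sox5 RNA was the highest of all. The mutant sums were 14.2, 15.5 and 14.8 CPM in CARM1 knockout and 17.0, 12.9 and 7.79 in NFIB mutant libraries. Over the 30 peaks higher in both the sums were 20.5, 18.1 and 24.0 CPM in TKO, 141, 126 and 130 in CARM1 knockout and 124, 139 and 162 in NFIB mutant libraries.

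The study's text says that both assays were made on the same tumors, but not that equal library numbers mean the same tumor. RNA and ATAC libraries with the same number were taken here to share a tumor. The RNA level and the start-site peak were then compared over the 6 mutant libraries for the 8 tested genes. Log2 values were used, with exact two-sided permutation tests adjusted over the 8 relations. The link between libraries rests on their shared number. For Sox2 Pearson's r was 0.949 (exact permutation p = 0.00278, adjusted p = 0.0222) and Spearman's rho 0.943 (exact permutation p = 0.0167, adjusted p = 0.133), and r was 0.881 without the 2 libraries farthest from the median peak level. For Sox11 r was 0.850 (exact permutation p = 0.0194, adjusted p = 0.0518), and 0.728 without the 2 farthest libraries. Its rho was 0.886 (exact permutation p = 0.0333, adjusted p = 0.133). For Sox1, Sox6 and Sox21 r was 0.985, 0.966 and 0.833 but fell to 0.398, 0.443 and 0.116 without the 2 farthest libraries, so these relations rest on those libraries. For Sox4, Sox5 and Sox9 r was 0.163, -0.277 and 0.308. The permutations exchanged libraries between the mutants, so a difference between the mutants present in both assays also enters r and p. With 3 libraries in each mutant the relation could not be tested within a genotype.

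**Figure D5:**
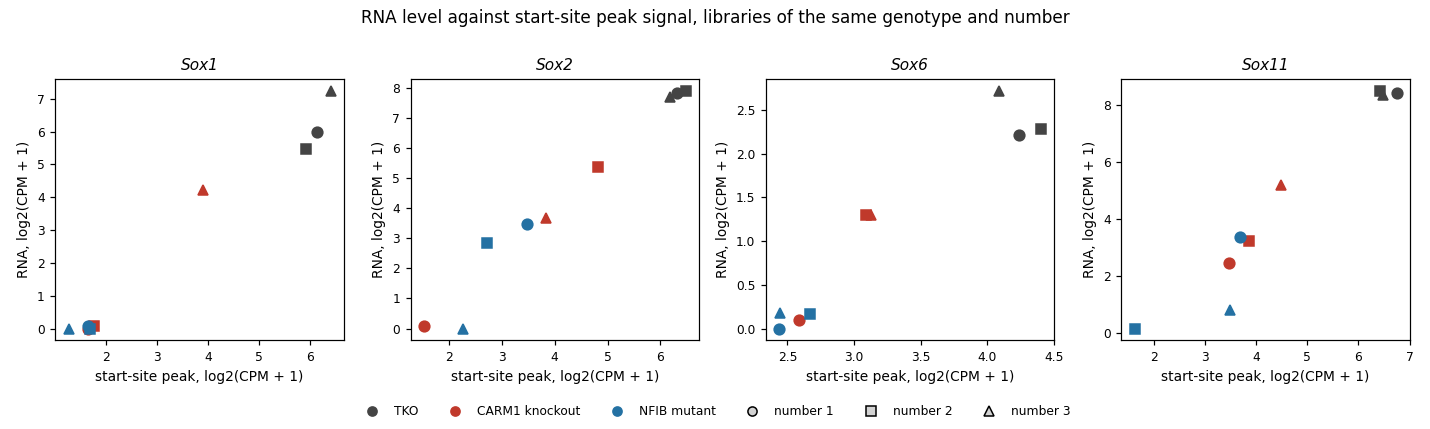
RNA level against start-site peak level in libraries with the same number, both as log2(CPM + 1), for Sox1, Sox2, Sox6 and Sox11. TKO, CARM1 knockout and NFIB mutant libraries are in separate colors. Over the 6 mutant libraries Sox2 has r = 0.949 and Sox11 has r = 0.850.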

How the data were processed

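Per the study's methods, RNA reads were trimmed with Trim Galore, aligned to mm10 with HISAT2 and counted per gene with htseq-count, and the authors deposited raw counts. ATAC reads were aligned with Bowtie2, duplicates were removed with Picard, peaks were called with MACS2 (the submitters' processing notes name Genrich), regions with altered copy number were filtered out, and counts per peak, as deposited, came from featureCounts 1.6.3. Both tables were fitted here with edgeR 4.0.16 (R 4.3.3): TMM scaling, filterByExpr, robust quasi-likelihood, 1 model over the 9 libraries, Benjamini-Hochberg adjustment over all features tested. SE is the fold change divided by the square root of F. The call thresholds follow the study's methods. The 5 summary entries of the RNA table were left out, of which reads in no gene were 10.0 to 12.2% in TKO and 3.65 to 5.17% in the mutants. Nothing in the sources says whether counting used strand, and the precision is that of 3 animals. The SOX genes, gene lists and marker lists were chosen with earlier results of these data known. Genes outside the family are named if in a SOX list and called in both mutants, if they overlap a SOX gene, or if among the 3 most alike in pattern, and peaks are named if nearest a start site or highest among those lower or higher in both mutants. The Sox1 and Sox11 upstream peaks and the inner Sox5 start site were named after their values were seen. Alternatives were other scalings, filters and thresholds, DESeq2 1.42.0, the replicate block and leaving out each library. The statistics were tested on simulated data.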

Additional observations from a re-analysis of the deposited data

How the results depend on the processing

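The counts of SOX genes and peaks called moved by more than 1.5 times under few alternatives. Requiring at least 10 counts in every library left 3 SOX genes to test (this removes genes near 0 in a mutant), with 1 called in CARM1 knockout, 2 in NFIB mutant and 2 with both together, in place of 2, 6 and 6. The same filter gave 39 peaks in CARM1 knockout (18 higher, 21 lower), 42 in NFIB mutant (18 higher, 24 lower) and 42 with both together (18 higher, 24 lower). DESeq2 called 2 SOX genes (Sox1 and Sox6) and 1 peak between the mutants, where edgeR called 0, and gave no adjusted p for Sox2 and Sox11. Against TKO it called Sox1, Sox5 and Sox6 in CARM1 knockout and Sox1, Sox4, Sox5 and Sox6 in NFIB mutant. Leaving out 1 library at a time gave 1 to 3 SOX genes called in CARM1 knockout, 5 to 6 in NFIB mutant and 5 to 7 with both together. Fitting only the groups compared added Sox21 in NFIB mutant. The numbers of the libraries did not pair the samples (r of deviations from -0.297 to 0.118 over 18 same-numbered pairs, 2 of them over 0.1). With the replicate block, 4 SOX genes were called in CARM1 knockout (Sox1, Sox5, Sox6 and Sox11) and 6 in NFIB mutant. Sox1 was at -6.63 (edgeR adjusted p = 0.0523) and Sox6 at -2.79 (adjusted p = 0.0877) in CARM1 knockout with that block. No fold change that was called reversed under any alternative run. The causes of these changes were not tested. Depth limits Sox1 and Sox6 in NFIB mutant, which held 1 and 4 counts, and Sox7 in TKO, whose libraries were under the level of 3 counts.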
